A study of Mus musculus with 8 samples.

Results

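The cytosolic heat shock chaperones were followed as 10 genes, Hsf1, Hspa8, Hspa1a, Hspa1b, Hsph1, Dnajb1, Dnaja1, Hsp90aa1, Hsp90ab1 and Hspb1, out of 19919 gene symbols with a measured probe. They were found as every array probe that carries one of these symbols in the probe annotation, which gave 19 probes. Of these, 18 gave a signal well above background on all 8 arrays and were analysed. The remaining probe, the dimmest of 3 for Hsp90aa1, passed on 1 array only and was not tested. None of the 10 genes differed between KO and control mice past the threshold in either mouse line, and the confidence intervals below show how large a change the arrays could have missed.

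RNA of the dentate gyrus, the hippocampal region in which new neurons form in adult mice, was hybridised to 8 Agilent 1-colour arrays, 2 for each of 4 groups. All mice were male C57BL/6 animals aged 8 to 9 weeks. Derlin-1 control mice carried floxed Derl1 (Derlin-1flox/flox) and Derlin-1 KO mice carried in addition Cre recombinase driven by the nestin promoter. Derlin-2 control mice (Derlin-2flox/flox) and Derlin-2 KO mice were made in the same way for Derl2. Both Derlins sit in the membrane of the endoplasmic reticulum (ER), where they help to pass misfolded proteins out for degradation, and the study asked what their loss does in this tissue. The nestin promoter drives Cre in neural stem and precursor cells and so in the neurons and glia that descend from them, while microglia, which do not, keep the gene. No Cre transgene is named for the control mice, so an effect of Cre itself cannot be told apart from loss of the floxed gene. The labels do not say whether an array held RNA of a single mouse or a pool, so p-values measure the spread between these samples only.

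Cytosolic chaperones bind unfolded stretches of protein and help them fold, refold or go to degradation. When unfolded protein builds up in the cytosol, the transcription factor Hsf1 forms trimers, binds heat shock elements in DNA and raises transcription of the inducible chaperone genes. The unfolded protein response of the ER is a separate pathway with its own sensors and its own chaperones. Neurons hold large amounts of the constitutive chaperones, and in the brain the inducible forms are known as markers of proteotoxic stress.

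The heat shock element is built from short inverted repeats, and the bases before the start of 3 inducible members are shown because they carry such a repeat. RefSeq windows of the mouse build GRCm38.p6 were available for 6 of the 10 members (Hspa1a, Hspa1b, Hsph1, Dnajb1, Dnaja1 and Hspb1). In the 250 bases before each annotated start, the letters GAANNTTC or TTCNNGAA were searched. Each of the letter strings reads the same on the opposite strand, so both strands were covered, and matches of one may overlap matches of the other. A match stood in 6 of the 10 windows of these members and in at least 1 window of 5 genes. These windows are not independent, since those of Hsph1 overlap and hold the same match. Some windows of Dnajb1 and Dnaja1 belong to later annotated starts and lie inside the gene. Both Hsph1 windows also belong to later starts and lie partly inside the gene, and their match falls inside it. Of all 32851 windows in the table, 12.8% held a match. That is a share per window, and whether the members hold more matches was not tested. The windows of Hspa1a (chr17:34972157-34972406, minus strand), Hspa1b (chr17:34959239-34959488, minus strand) and Hspb1 (chr5:135887669-135887918, plus strand) read as follows from 5′ to 3′, with the matches in capitals.
Hspa1a: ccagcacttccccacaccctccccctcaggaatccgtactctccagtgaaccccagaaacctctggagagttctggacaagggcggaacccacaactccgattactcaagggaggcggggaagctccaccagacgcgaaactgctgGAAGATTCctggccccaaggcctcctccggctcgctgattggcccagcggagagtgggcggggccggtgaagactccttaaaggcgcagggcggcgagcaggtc
Hspa1b: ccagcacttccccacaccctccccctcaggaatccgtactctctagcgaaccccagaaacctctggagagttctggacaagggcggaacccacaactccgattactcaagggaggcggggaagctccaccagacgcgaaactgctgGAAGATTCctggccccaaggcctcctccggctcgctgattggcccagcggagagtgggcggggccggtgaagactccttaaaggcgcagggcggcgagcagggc
Hspb1: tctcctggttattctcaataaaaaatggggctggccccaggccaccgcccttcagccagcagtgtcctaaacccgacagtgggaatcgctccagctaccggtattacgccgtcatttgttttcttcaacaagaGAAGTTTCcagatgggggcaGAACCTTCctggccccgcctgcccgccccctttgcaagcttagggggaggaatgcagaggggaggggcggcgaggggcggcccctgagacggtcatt
The windows of Hspa1a and Hspa1b lie near each other on the same strand of chromosome 17 and differ at 3 of 250 positions, and in both the match begins 104 bases before the start. In Hspb1 one match begins 117 bases and the next 97 bases before the start, and 1.46% of all windows held 2 or more. The windows of Dnajb1 held no match. A match in these letters is a description of the sequence and does not show that Hsf1 binds there.

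Array intensities are given on the log2 scale after quantile normalization, so that a difference of 1 means a doubling. The brightest probe stands for a gene that has more than 1, and differences are KO minus control with the standard error (SE) of a limma fit over the 4 groups. Intensities of different probes were not set against each other, since probes differ in how well they bind their target. Adjusted p-values are Benjamini-Hochberg values of that fit over all probes tested, and a probe passed when its adjusted p was under 0.05. Of the members, 0 of 10 genes passed in each line, and 0 of 10 had an unadjusted p under 0.05 in either. Over all probes, 0 of 39981 passed for Derlin-1 (0%), with 4.72% at an unadjusted p under 0.05, and 18 of 39812 passed for Derlin-2 (0.0452%), with 5.55% at an unadjusted p under 0.05.

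Hsf1, the transcription factor of the response, differed least between KO and control of the 10 genes. Its log2 intensity was 10.62 and 10.63 in the Derlin-1 controls and 10.65 and 10.59 in Derlin-1 KO. Derlin-2 controls gave 10.43 and 10.40 and Derlin-2 KO gave 10.45 and 10.37. KO and control arrays overlapped in both lines. The difference was -0.00087 ± 0.0926 (SE, n = 2 against 2) for Derlin-1 and -0.0029 ± 0.0926 for Derlin-2, with 95% confidence intervals of -0.23 to 0.23 and -0.23 to 0.22. Its activity as a factor is set by trimer formation and modification of the protein, which these arrays do not measure.

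Hspa8 encodes Hsc70, the constitutive Hsp70 chaperone of the cytosol, which also strips clathrin from vesicles at synapses. On its brightest probe the log2 intensity was 16.07 and 16.14 in the Derlin-1 controls and 16.13 and 16.15 in Derlin-1 KO. It was 16.02 and 15.92 in the Derlin-2 controls and 15.99 and 16.00 in Derlin-2 KO. The groups overlapped in both lines, with differences of 0.036 ± 0.0939 (SE) for Derlin-1 and 0.029 ± 0.0939 for Derlin-2.

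Hspa1a and Hspa1b encode the stress-inducible Hsp70 proteins, and both are direct targets of Hsf1 and among the first genes to rise when cytosolic proteins unfold. Hspa1a stood at 11.76 and 11.81 in the Derlin-1 controls and at 11.98 and 11.99 in Derlin-1 KO. Values of 11.64 and 11.73 were found in the Derlin-2 controls and of 11.71 and 11.85 in Derlin-2 KO. Both Derlin-1 KO arrays lay above both controls, while the Derlin-2 arrays overlapped. The difference was 0.20 ± 0.10 (SE) in the Derlin-1 line, a 1.15-fold ratio with a 95% confidence interval of 0.968 to 1.36 (limma adjusted p = 0.9997). It was 0.097 ± 0.10 in the Derlin-2 line, a 1.07-fold ratio with an interval of 0.902 to 1.27.

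Hspa1b stood at 10.28 and 10.13 in the Derlin-1 controls and at 10.34 and 10.40 in Derlin-1 KO. The Derlin-2 controls gave 9.98 and 10.15, and Derlin-2 KO gave 10.29 and 10.38. Hspa1b was the only member whose KO arrays lay above the controls in both lines, a pattern that 2.82% of all probes showed. The differences were 0.17 ± 0.113 (SE) for Derlin-1 and 0.27 ± 0.113 for Derlin-2, the latter a 1.21-fold ratio with a 95% confidence interval of 0.996 to 1.46 (limma adjusted p = 0.911). This interval came nearer to leaving a ratio of 1 than that of any other member in either line. Hspa1a and Hspa1b encode almost the same protein and their transcripts are near copies, so signal from one may reach the probe of the other, which was not tested.

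Hsph1, the Hsp110 chaperone that recharges Hsp70 with nucleotide and is itself an Hsf1 target, lay on the other side. Its log2 intensity was 14.19 and 14.19 in the Derlin-1 controls against 14.01 and 14.11 in Derlin-1 KO. It was 14.25 and 14.24 in the Derlin-2 controls against 14.16 and 14.16 in Derlin-2 KO. Both KO arrays lay below both controls in each line, as did 2.27% of all probes. The differences were small, -0.13 ± 0.0925 (SE) for Derlin-1 and -0.090 ± 0.0925 for Derlin-2, with limma adjusted p-values of 0.9997 and 0.998.

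Dnajb1 and Dnaja1 encode J proteins of the Hsp40 class, which hand unfolded clients to Hsp70 and start its ATPase cycle. Dnajb1, the stress-inducible one, stood at 13.72 and 13.58 in the Derlin-1 controls and at 13.68 and 13.71 in Derlin-1 KO. The Derlin-2 controls had 13.52 and 13.35, and Derlin-2 KO had 13.49 and 13.49. The groups overlapped in both lines, with differences of 0.049 ± 0.108 (SE) and 0.056 ± 0.108. Dnaja1 stood at 14.54 and 14.54 in the Derlin-1 controls and at 14.45 and 14.55 in Derlin-1 KO. Its Derlin-2 values were 14.56 and 14.47 in the controls and 14.53 and 14.60 in KO. Here too the groups overlapped, with differences of -0.038 ± 0.0973 and 0.053 ± 0.0973.

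Hsp90aa1 and Hsp90ab1 encode the Hsp90 chaperones, the first the inducible and the second the constitutive form, which mature kinases and steroid receptors and hold Hsf1 inactive. Hsp90aa1 stood at 15.62 and 15.66 in the Derlin-1 controls and at 15.47 and 15.48 in Derlin-1 KO. Its Derlin-2 values were 15.96 and 16.19 in the controls and 16.18 and 16.15 in KO. Both Derlin-1 KO arrays lay below their controls, and the Derlin-2 arrays overlapped. The difference was -0.17 ± 0.111 (SE) for Derlin-1 and 0.090 ± 0.111 for Derlin-2, with limma adjusted p-values of 0.9997 and 0.998. Hsp90ab1 stood at 16.95 and 17.00 in the Derlin-1 controls and at 16.92 and 17.05 in Derlin-1 KO, and at 16.84 and 16.96 in the Derlin-2 controls and at 16.93 and 16.86 in Derlin-2 KO. Its groups overlapped in both lines, with differences of 0.0098 ± 0.104 and -0.0038 ± 0.104.

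Hspb1 encodes the small heat shock protein Hsp25, which holds unfolding proteins soluble without ATP and is found in glia and vessels as well as in stressed neurons. Its log2 intensity was 11.22 and 10.85 in the Derlin-1 controls and 11.40 and 11.21 in Derlin-1 KO. The Derlin-2 controls gave 11.11 and 10.91 and Derlin-2 KO gave 11.08 and 11.02. Hspb1 had the widest spread of the 10 brightest probes, an SD within groups of 0.164, and its groups overlapped in both lines. The difference was 0.27 ± 0.159 (SE) in the Derlin-1 line, with a 95% confidence interval of -0.12 to 0.65, and 0.040 ± 0.159 in the Derlin-2 line. The Derlin-1 value rested much on the control arrays, at 0.079 without control 2 and 0.45 without control 1.

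**Figure D1:**
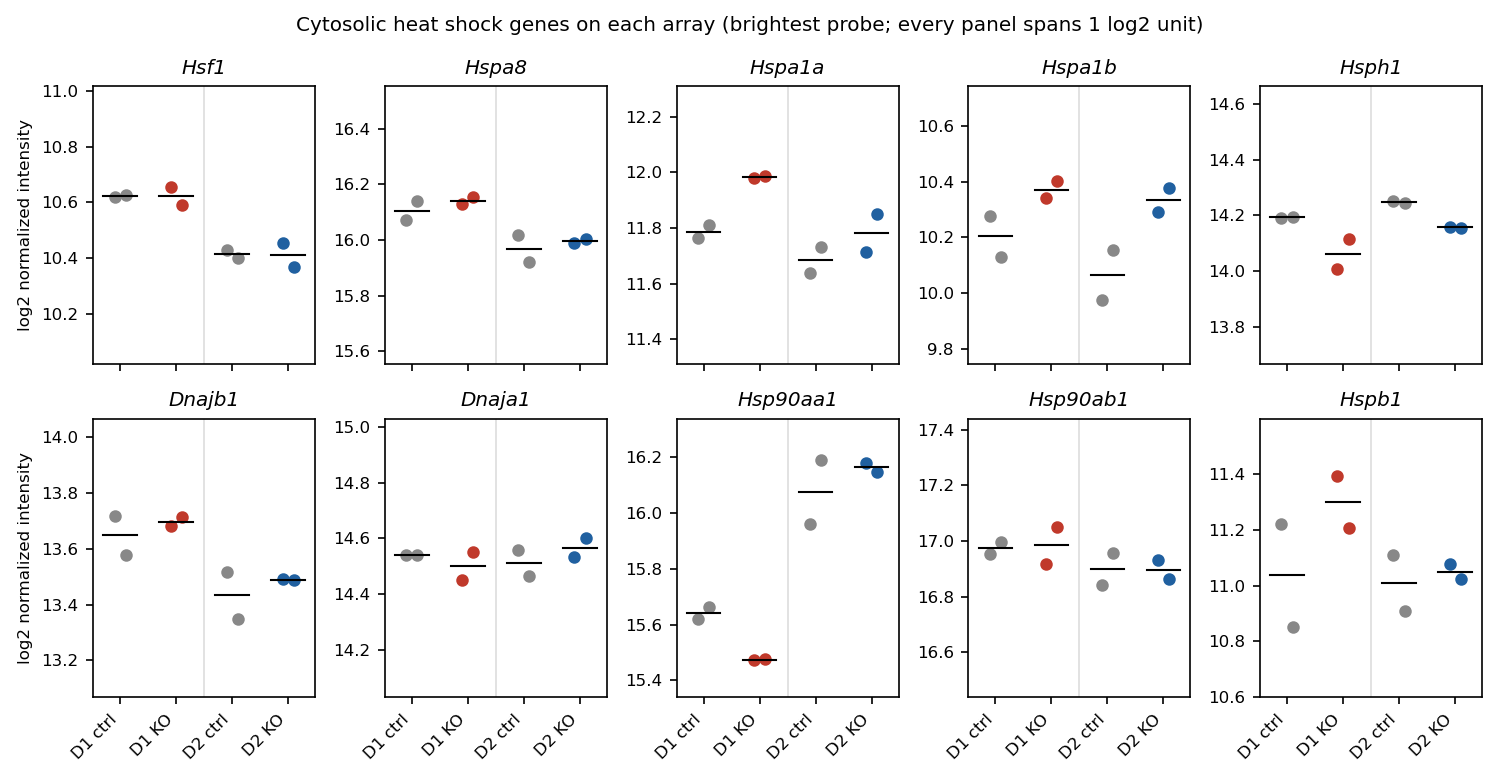
Log2 normalized intensity (y axis) of the brightest probe of each of the 10 genes on every array, grouped on the x axis by line (D1 and D2) into control and KO, 2 arrays a group. Dots are arrays, bars are group means, and each panel spans 1 log2 unit so that changes can be read on the same scale. Hspa1b KO arrays sit above their controls in both lines and Hsph1 KO arrays below. Hsp90aa1, Hsf1, Hspa8 and Dnajb1 differ mainly between the lines.

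Counted over the 10 genes, both KO arrays lay above both controls for 2 (Hspa1a and Hspa1b) and below for 2 (Hsph1 and Hsp90aa1) in the Derlin-1 line, against 18.8% and 16.8% of all probes. For Derlin-2 the counts were 1 above (Hspa1b) and 1 below (Hsph1), against 18.1% and 13.4%. These shares are near those of all probes. The median difference of the 10 genes was 0.023 in the Derlin-1 line, where the median of all probes was -0.014, and 0.046 in the Derlin-2 line, where it was 0.015. The Derlin-1 median turned to -0.013 with normexp background correction and to -0.0015 without Derlin-1 control 1, and the Derlin-2 median to -0.0052 without Derlin-2 control 2. Differences were above 0 for 6 of 10 genes in the Derlin-1 line and for 7 of 10 in the Derlin-2 line, beside 46.6% and 53.7% of all probes.

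The 95% confidence intervals give bounds on each probe's difference. For the brightest probes in the Derlin-1 line they reached from a 0.738-fold ratio (Hsp90aa1) to a 1.57-fold ratio (Hspb1), and 9 of 10 intervals lay within a 1.5-fold change either way. For Derlin-2 they reached from 0.785-fold (Hspb1) to 1.46-fold (Hspa1b), and all 10 lay within 1.5-fold. Over all 18 member probes the intervals were wider, from 0.521-fold (Hspa8, A_55_P2910890) to 1.57-fold for Derlin-1 and from 0.616-fold to 1.93-fold (Hspa8, A_66_P137434) for Derlin-2. With 2 arrays a group, changes within these bounds cannot be told apart from none. RNA of a whole tissue does not tell fewer cells with a transcript apart from less transcript per cell.

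**Figure D2:**
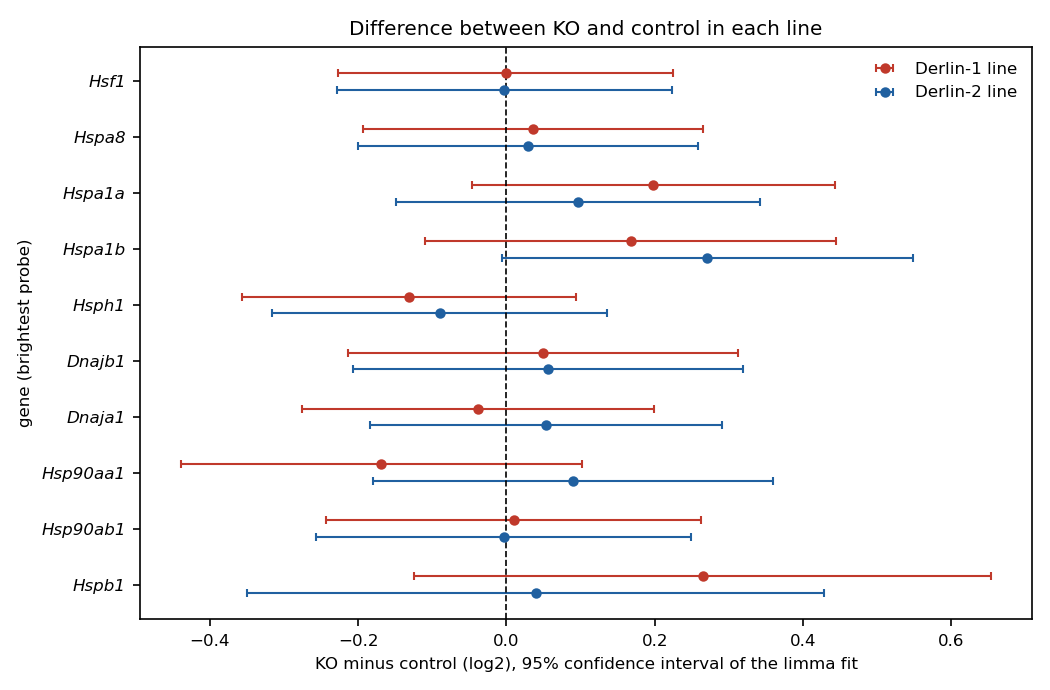
KO minus control on the log2 scale (x axis) for the brightest probe of each of the 10 genes (y axis), Derlin-1 line in red and Derlin-2 line in blue, with n = 2 arrays against 2. Dots are fitted differences, bars are 95% confidence intervals of the limma fit, and the dashed line marks no difference. Every interval includes 0, and the one nearest to leaving it is Hspa1b in the Derlin-2 line.

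The difference between the lines (Derlin-1 effect minus Derlin-2 effect) was tested in the same fit, in which 3 of 39810 probes passed (0.00754%) and 5.90% had an unadjusted p under 0.05. Of the members 0 of 10 passed, 0 had an unadjusted p under 0.05, and 5 of 10 lay above 0, beside 44.8% of all probes. The differences ran from -0.26 ± 0.157 (SE) for Hsp90aa1 (limma adjusted p = 0.893) to 0.23 ± 0.225 for Hspb1 (limma adjusted p = 0.948).

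On its brightest probe, the level of Hsp90aa1 separated the lines more than it separated KO from control. Derlin-2 controls lay 0.43 above Derlin-1 controls on this probe, and all 4 Derlin-2 arrays lay above all 4 Derlin-1 arrays. Ordered by level, Derlin-1 KO came lowest, then Derlin-1 control, and the Derlin-2 groups, which overlapped, came highest. The second Hsp90aa1 probe (A_55_P2740832) kept this order, but its lines lay closer together. Its control means were 15.07 for Derlin-1 and 15.25 for Derlin-2, beside a Derlin-1 KO difference of -0.16. For the other 9 genes the gap between the control groups ran from -0.21 (Dnajb1 and Hsf1) to 0.055 (Hsph1). A full separation of the lines was not particular to Hsp90aa1. On the brightest probes of Hsf1, Hspa8 and Dnajb1, all 4 Derlin-1 arrays lay above all 4 Derlin-2 arrays. The share of all probes with such a separation was not counted. The lines were on different slides, so that line and slide cannot be told apart and no test of these gaps was made.

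Several members were measured by more than 1 probe, which shows how far a value rests on the probe. Hspa8 had 4 probes. Its brightest probe (A_55_P2069721) had an SD within groups of 0.0433, at the 2.97 percentile of all probes, whereas the other 3 (A_55_P2909278, A_55_P2910890 and A_66_P137434) had SDs of 0.283, 0.353 and 0.361. The dimmer probes moved together from array to array. On A_66_P137434 the Derlin-1 controls gave 12.71 and 12.01 and the Derlin-1 KO arrays 12.16 and 12.20, and the Derlin-2 controls gave 12.01 and 11.41 and the Derlin-2 KO arrays 11.70 and 12.12. Their differences in the Derlin-1 line were -0.17 ± 0.245 (SE), -0.21 ± 0.299 and -0.18 ± 0.306, opposite in sign to the brightest probe, and with the mean of all 4 probes the Derlin-1 difference became -0.13. For Derlin-2 they were -0.040, 0.031 and 0.20. Over the 8 arrays, with each probe centred on its mean in the line, the dimmer probes correlated with each other at a Pearson r of 0.942 to 0.985 and with the brightest at -0.006 to 0.138, a description over arrays that share slides. None of the 4 probes passed the threshold, and the probe sequences and the parts of the transcript they bind were not used here.

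**Figure D3:**
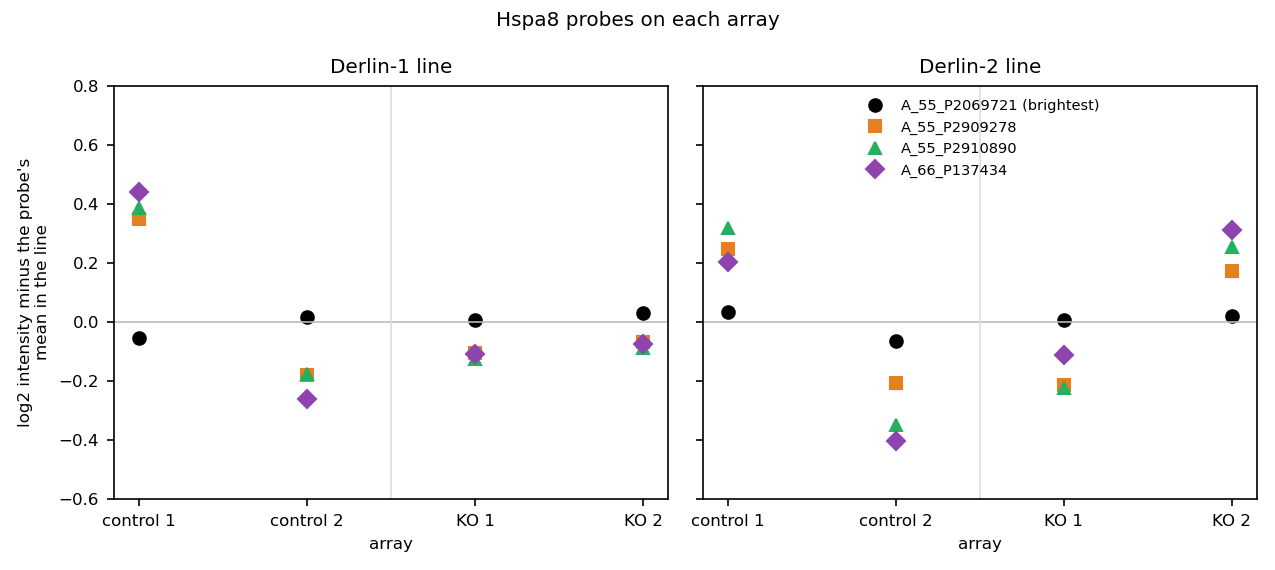
Log2 intensity of the 4 Hspa8 probes on each array (x axis) after subtracting each probe's mean over the 4 arrays of the line (y axis), Derlin-1 line on the left and Derlin-2 line on the right. The brightest probe (black circles) stays close to 0 on every array, while the other 3 move together and are high in replicate 1 of both control groups and in replicate 2 of Derlin-2 KO.

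Dnaja1 had 3 probes, and the dimmer ones gave log2 intensities between 6.82 and 7.98. On A_55_P1992149 the Derlin-1 controls gave 7.71 and 7.78 and Derlin-1 KO 7.51 and 7.59, while the Derlin-2 controls gave 7.58 and 7.90 and Derlin-2 KO 7.94 and 7.98. Both KO arrays lay below the controls in the Derlin-1 line and above them in the Derlin-2 line, as 6.19% of all probes did in one order or the other. The effects were -0.19 ± 0.131 (SE) and 0.22 ± 0.131, and the brightest Dnaja1 probe did not show this split. Neither did the third probe, A_65_P12751, which gave -0.045 ± 0.138 (SE) and 0.020 ± 0.138, with overlapping arrays in both lines. Hsp90aa1 had a second measured probe (A_55_P2740832), with differences of -0.16 ± 0.0999 (SE) and -0.0054 ± 0.0999, so that in the Derlin-1 line both probes had their KO arrays below the controls. Of the 2 further Hsph1 probes, A_55_P2003513 gave -0.090 for Derlin-1 and -0.063 for Derlin-2, and A_55_P2931347 gave -0.036 and 0.076.

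The wider chaperone machinery was described with 58 further genes in 8 lists: factors and regulators of the Hsf family, other Hsp70 and Hsp110 genes, other cytosolic J proteins, Hsp70 cofactors, Hsp90 cochaperones, other small heat shock proteins, the TRiC chaperonin and mitochondrial chaperones. All 58 were measured, and 0 passed in either line. At an unadjusted p under 0.05 there were 0 of 58 for Derlin-1 and 1 of 58 for Derlin-2. Of all probes, 4.72% and 5.55% had such a p. The median difference was -0.030 for Derlin-1 and 0.033 for Derlin-2. The differences were above 0 for 24 and 39 of the 58, beside 46.6% and 53.7% of all probes.

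Among the Hsp70 partners, Bag3, a nucleotide exchange factor that is itself induced by Hsf1, had both KO arrays above the controls in both lines. No other gene of the 58 did so, and 2.82% of all probes showed this pattern. The differences of Bag3 were 0.19 ± 0.105 (SE) and 0.14 ± 0.105. Fkbp5, an Hsp90 cochaperone of the glucocorticoid receptor and a glucocorticoid target, had the lowest value of the 58 in the Derlin-1 line. It gave 12.69 and 12.64 in the Derlin-1 controls and 12.36 and 12.28 in Derlin-1 KO, a difference of -0.35 ± 0.158 (limma adjusted p = 0.9997). Derlin-2 controls gave 12.54 and 12.98 against 12.46 and 12.53 in KO, a difference of -0.27 ± 0.158. Both KO arrays of Fkbp5 thus lay below the controls in both lines. So did those of the J protein genes Dnajc5 and Dnajc7, and 2.27% of all probes showed this pattern. Hspa1l, an Hsp70 gene known for its expression in testis, was lowest in the Derlin-2 line at -0.50 ± 0.201 (limma adjusted p = 0.897), on a dim probe of log2 intensity 4.48 to 5.36.

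Of the other genes named by size, Dnajc2, a ribosome-bound J protein, gave -0.24 in the Derlin-1 line, and Hspa12a, a distant Hsp70 relative, gave -0.18. Trap1, the mitochondrial Hsp90, gave -0.15 in the Derlin-2 line. The 8 TRiC subunits, which fold actin and tubulin, ran from -0.11 to 0.081 for Derlin-1 and from -0.049 to 0.13 for Derlin-2. The 6 other small heat shock proteins, Cryab among them, ran from -0.17 to 0.25 for Derlin-1, with 5 of 6 above 0 and a median of 0.17. For Derlin-2 they ran from -0.37 to 0.33, with 4 of 6 above 0 and a median of 0.028. Of all probes, 46.6% and 53.7% lay above 0, and 0 of these 6 genes passed in either line. Hspb7 was dim, at a mean log2 intensity of 4.27 and well above background on 5 arrays. Hspb2 and Hspb3 were also low, at 7.06 and 6.73.

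The ER chaperones stand beside these lists as the pathway of the compartment from which the Derlins act. For Hspa5, the Hsp70 of the ER also known as BiP, the Derlin-1 controls gave 13.95 and 13.84 and Derlin-1 KO 14.58 and 14.52. The Derlin-2 controls gave 13.79 and 14.02 and Derlin-2 KO 14.36 and 14.41. The difference was 0.66 ± 0.118 (SE) for Derlin-1 and 0.48 ± 0.118 for Derlin-2, with adjusted p-values of 0.9997 and 0.587 by limma, so that it did not pass. Of the 8 ER chaperone genes, 8 lay above 0 in each line, 4 had an unadjusted p under 0.05 for Derlin-1 and 3 for Derlin-2, and 0 passed. Of all probes, 46.6% lay above 0 for Derlin-1 and 53.7% for Derlin-2, and 4.72% and 5.55% had an unadjusted p under 0.05. Their median differences were 0.30 and 0.23, and the members' medians were 0.023 and 0.046. Sdf2l1, a partner of BiP, gave 0.70 in the Derlin-1 line, and Hyou1, the ER relative of Hsph1, and Dnajc3, an ER J protein, gave 0.28 and 0.33 in the Derlin-2 line. The difference between the ER list and the members was not tested.

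Immediate early genes, which neurons transcribe within minutes of activity, are given for comparison. For Derlin-1 10 of 10 lay above 0 with a median of 0.34, led by Egr2 at 0.73 and Npas4 at 0.67, and 6 of 10 lay above 0 in the Derlin-2 line with a median of 0.033. At an unadjusted p under 0.05 there were 2 for Derlin-1 and 0 for Derlin-2, and 0 passed in either. The shares of all probes above 0 were 46.6% for Derlin-1 and 53.7% for Derlin-2, and those at an unadjusted p under 0.05 were 4.72% and 5.55%. Their part in the values of the members was not tested.

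**Figure D4:**
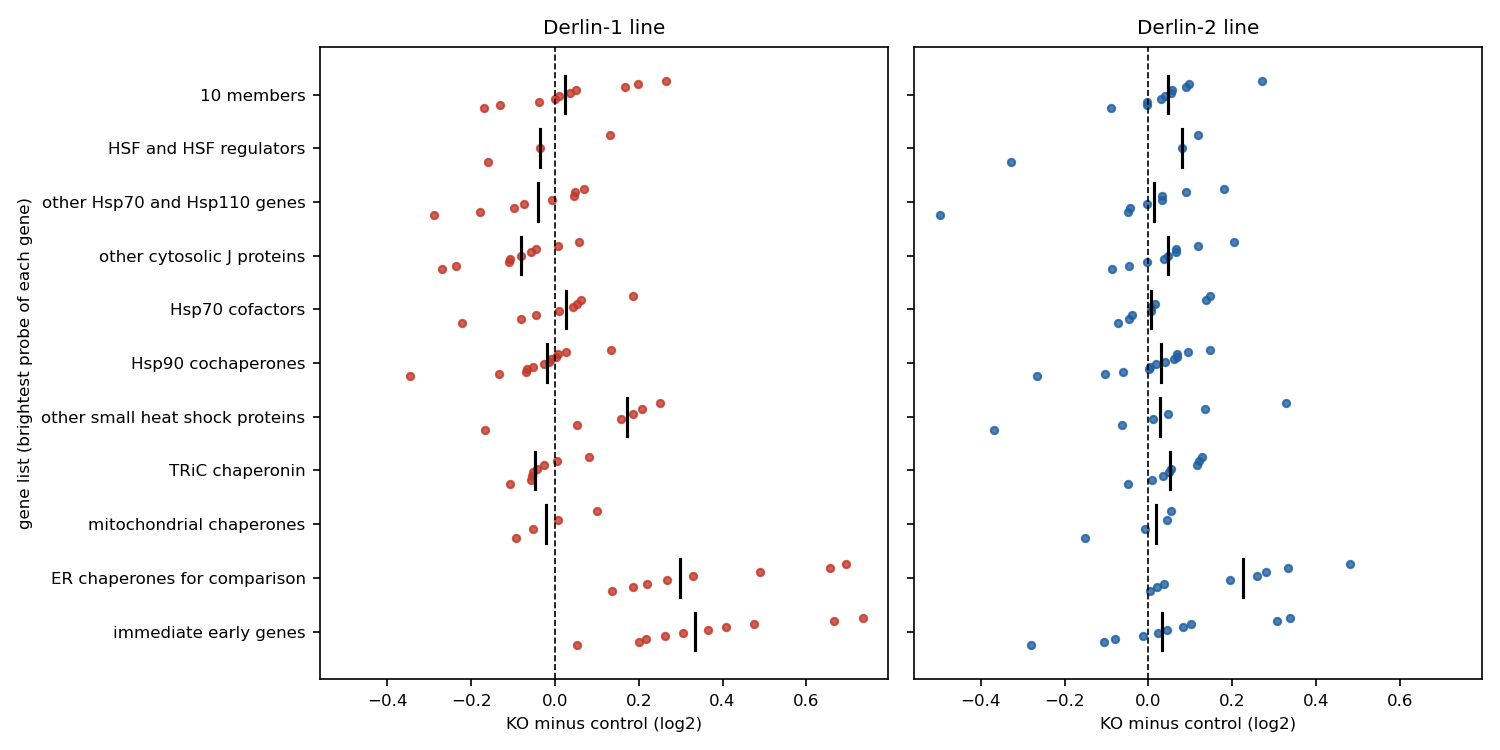
KO minus control on the log2 scale (x axis) of every gene in each list (y axis), Derlin-1 line on the left and Derlin-2 line on the right, with the brightest probe of each gene and n = 2 arrays against 2. Dots are genes and black bars are list medians. The members have medians of 0.023 and 0.046, the other small heat shock proteins reach a median of 0.17 for Derlin-1 and 0.028 for Derlin-2, and the ER chaperones have medians of 0.30 and 0.23.

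The members did not move as one block across the arrays. With each gene centred on its mean in the line, the mean of the 10 members correlated over the 8 arrays with Hspa1b at a Pearson r of 0.928, with Hspa1a at 0.654 and with Hsph1 at -0.664, each of which is part of that mean. Outside the members, the 5 genes whose pattern was most like that mean among 19656 genes were Usp3, Lats1, Borcs6, Npy2r and Yipf2, with r of 0.969 to 0.984. These are the highest of many values over 8 arrays and are given as a description.

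Between 67.6% and 70.8% of the array's 56605 probes were well above background on each array, no spot was saturated, and arrays of the same group correlated at r of 0.987 to 0.995. The last eighth of the array rows held 10 of the 18 probes that passed for Derlin-2 and no brightest probe of a member. It did hold the dimmer member probes A_55_P2740832 (Hsp90aa1) and A_55_P2003513 (Hsph1). The brightest probes of the companions Bag3, Hsbp1, Cct6a, Hspa14, Dnaja4 and Dnajb4 and the brighter Derl2 probe also lay there. So did those of Dnajb9 and Pdia4 of the ER list and of the immediate early genes Egr1 and Fosb. Of the cell type markers, Prox1, Wfs1, Gfap, Kl and Kcnj13 lay there. The targeted genes were read as a check of the labels. Both Derlin-2 KO arrays lay below their controls for Derl2 on both probes, with 11.35 and 11.22 in the controls and 10.63 and 10.66 in KO on the brighter one. Derl1 lay at 10.85 and 10.76 in the Derlin-1 controls and at 10.57 and 10.66 in Derlin-1 KO on its brighter probe, and was higher in KO than in control on its dimmer probe, so Derl1 does not settle the Derlin-1 labels. All 5 granule neuron markers, Prox1 among them, were above background on at least 1 array, as were 5 of 5 markers of pyramidal neurons, astrocytes, microglia, oligodendrocytes, endothelium and choroid plexus and 4 of 4 measured blood markers. The summed intensity of the 5 microglia markers was 25872 to 26985 in the Derlin-1 controls and 22803 to 24013 in Derlin-1 KO, and 27221 to 32562 and 28477 to 30428 in the Derlin-2 groups. All 5 microglia markers lay below 0 for Derlin-1, and 4 of 5 lay above 0 for Derlin-2. Of all probes, 46.6% lay above 0 for Derlin-1 and 53.7% for Derlin-2. The granule marker sum overlapped between KO and control in the Derlin-1 line and was 20937 to 22564 in the Derlin-2 controls against 19956 to 20804 in Derlin-2 KO, where 3 of 5 markers lay below 0 (Calb1 at -0.15) and 2 above (Tdo2 at 0.48). Sums also lay apart for Derlin-1 in astrocytes and choroid plexus, higher in KO, but the astrocyte markers were split, 3 above 0 (Gfap at 0.31) and 2 below (Aldh1l1 at -0.15), and of the choroid plexus markers 4 lay above 0 (Ttr at 0.93) and 1 below (Kl at -0.25). All 4 blood markers lay below 0 in both lines. Their sum also lay apart for Derlin-2, at 86705 to 99451 in the controls and 80077 to 81189 in KO, and overlapped for Derlin-1. The part of these shifts in the values of the members was not tested.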

How the data were processed

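Per the labels and file headers, the deposited scanner output gives spot intensity after background subtraction and detrending by Agilent Feature Extraction 10.7.1.1. The authors also deposited log2 tables that GeneSpring had quantile-normalized and centred probe by probe on a median. Their columns name a group but not a sample, they were used as an alternative only, and the fold changes beside them were not used. Probe names and gene symbols came from these tables.

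From each array 3671 control spots were left out. A floor of 1 was set on the signals, log2 values were taken, quantile normalization was run across 8 arrays, spots with an outlier flag were set to missing, and spots of the same probe were averaged. A probe was kept where it was well above background on both arrays of at least 1 group, which left 39994 of 56605 probes. The 4 groups, taken from the sample titles, were fitted with limma 3.58.1 in R 4.3.3 (4 residual and 2.07 prior degrees of freedom), with Benjamini-Hochberg adjustment at 0.05. The fit was tested on simulated data whose planted changes were larger than any difference of a member. That test does not cover effects of the size seen in the members. Probes were not pooled over a gene, and precision is limited by the 2 arrays a group.

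Slide, scan and line coincide, so KO and control were compared within a slide. The arrays' probe positions follow an older mouse build and were not used. For KO mice the genotype label gives just the floxed allele, so groups rest on titles.

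The members and gene lists were chosen with earlier results of these data known. Named were all 10 members with each probe, Derl1 and Derl2, the 3 list genes with the largest difference per line and direction among those whose KO and control arrays did not overlap, and the 5 genes most like the members over the arrays. Bag3, Cryab, Hsbp1, Dnajb6, Ptges3, Cct6a and single cell type markers were named after their values were seen. The alternatives were scaling to the 75th percentile, normexp correction (offset 50), no filter on dim probes, each line fitted alone, the replicate number as a block, the deposited values, leaving out the last eighth of the array rows, a trended and robust prior, the mean over probes, and leaving out each array. The normexp correction used median in place of mean signals, since the files used here hold the former.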

Additional observations from a re-analysis of the deposited data

Results flagged for a closer look

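In 1 of 18 member probes and in 5 of 58 companion genes (Hsbp1, Dnajb6, Dnajc2, Ptges3 and Cct6a) both KO arrays lay below the controls in the Derlin-1 line and above them for Derlin-2, and 6.19% of all 39499 probes with complete values showed such an opposition in one order or the other. The member probe was the dimmer Dnaja1 probe A_55_P1992149, where the Derlin-1 effect minus the Derlin-2 effect was -0.41 on the log2 scale, and of the companions Dnajc2 (A_52_P533198) had the widest gap at -0.44, each with a limma adjusted p of 0.851. None of these differences between the lines passed the threshold. The brightest Dnaja1 probe gave a difference between the lines of -0.091 (limma adjusted p = 0.978), and the third, A_65_P12751, gave -0.065.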

How the results depend on the processing

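Of the 10 members and 58 companion genes, 0 passed in any comparison under any alternative. In every setting, arrays left out included, Hspa1a and Hspa1b stayed above 0 and Hsph1 below 0 in both lines, Hsp90aa1 below 0 and Hspb1 above 0 for Derlin-1, and Dnaja1 above 0 for Derlin-2. The signs that turned belonged to differences that were small in the reported fit, and the cause was not tested. With scaling to the 75th percentile the difference became 0.013 for Dnaja1 (Derlin-1) and 0.0055 for Hsf1 (Derlin-2), the difference between the lines became -0.0073 for Hsf1 and -0.033 for Hspa8, the Derlin-2 median of the members became 0.095, and 5 probes passed for the difference between the lines. With normexp correction the Derlin-1 median of the members was -0.013, Hspa8 gave -0.030 and Hsp90ab1 -0.020 for Derlin-1, and the difference between the lines was -0.0043 for Hsf1 and -0.086 for Hspa8. With the deposited log2 values Hsp90ab1 gave -0.0060 for Derlin-1 and Hsf1 0.00038 for Derlin-2, and the difference between the lines was -0.022 for Hsf1, -0.047 for Hspa8 and -0.055 for the members' median. With the mean over probes, which takes in the dimmer probes, Hspa8 gave -0.13 for Derlin-1 and -0.19 between the lines. These turned values were not small.

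The number of probes past the threshold for Derlin-2, 18 as reported, was 2 with normexp, 29 without the filter on dim probes, 0 in a fit of the line alone, 4 without the last rows of the array and 3 with the trended and robust prior. For the difference between the lines it was 0 under normexp, without the filter, without the last rows and with the trended prior, in place of 3. Of the 18 probes, 10 were in the array's last rows and 3 rested on a group of 1 array. With the replicate number as a block 0 probes passed for Derlin-2 and 0 for the difference between the lines, and no member's call changed. Same-numbered arrays had a correlation of their deviations of 0.264 (Derlin-1) and -0.0975 (Derlin-2), so the numbers were not read as a pairing.

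Leaving out each array in turn, where the lone array of a group was taken to vary like the others, gave 0 to 1 probes past the threshold for Derlin-1 (1 without Derlin-1 control 2), 4 to 54 for Derlin-2 (54 without Derlin-2 control 1) and 0 to 20 for the difference between the lines. Each of the 8 omissions moved the last 2 counts by over 1.5 times. The members' median ran from -0.0015 (without Derlin-1 control 1) to 0.057 for Derlin-1, from -0.0052 (without Derlin-2 control 2) to 0.064 for Derlin-2 and from -0.037 to 0.010 for the difference between the lines, and Hspb1 ran from 0.079 (without Derlin-1 control 2) to 0.45 (without Derlin-1 control 1) for Derlin-1. For Derlin-1 signs turned for Hsf1 (-0.033 to 0.031), Dnajb1 (-0.021 to 0.12), Dnaja1 (-0.087 to 0.011) and Hsp90ab1 (-0.057 to 0.076). For Derlin-2 they turned for Hsf1 (-0.045 to 0.039), Hspa8 (-0.020 to 0.077), Dnajb1 (-0.029 to 0.14), Hsp90aa1 (-0.026 to 0.21), Hsp90ab1 (-0.062 to 0.054) and Hspb1 (-0.059 to 0.14). The difference between the lines turned for Hsf1 (-0.040 to 0.044), Hspa8 (-0.041 to 0.056), Hsph1 (-0.095 to 0.013), Dnajb1 (-0.092 to 0.078) and Hsp90ab1 (-0.053 to 0.080).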
